A study of Rattus norvegicus with 63 samples.

Results

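The vesicular acetylcholine transporter and 3 of the muscarinic acetylcholine receptors were followed in 6 brain regions of rats that had long, short or no access to intravenous cocaine self-administration. The members are 4 of the 720 genes named by a rat neurobiology oligonucleotide array, measured by the 7 of its 1322 probe sets whose only gene symbol is Chrm1, Chrm4, Chrm5 or Slc18a3. Chrm1, Chrm4 and Slc18a3 have 2 probe sets each and Chrm5 has 1; each probe set is described on its own, and no probe set's level is set against another's. Rats of the long access group could self-administer cocaine for 6 h per day at 0.25 mg per injection, those of the short access group for 1 h per day at the same dose, and those of the no access group had 0 h and were drug-naive. Each access group had 8 rats. Nucleus accumbens, amygdala and lateral hypothalamus were measured on 4 arrays per access group, and septum, medial prefrontal cortex and ventral tegmental area on 3, which gives 63 arrays. The labels do not say whether an array holds RNA of 1 rat or of several, so the p-values measure the spread between arrays. Strain, sex and age are not given in the sources used here.

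Muscarinic receptors are G protein-coupled receptors for acetylcholine. The receptors encoded by Chrm1 and Chrm5 couple to Gq and phospholipase C, while the one encoded by Chrm4 couples to Gi/o and lowers cyclic AMP. Slc18a3 encodes the transporter that loads acetylcholine into synaptic vesicles and is a defining gene of cholinergic neurons, among them the interneurons of the striatum and nucleus accumbens and the projection neurons of the septum; Chrm4 is known for its expression in striatal projection neurons that carry the D1 dopamine receptor, and Chrm5 for its expression in midbrain dopamine neurons.

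RefSeq promoter sequence was held for 3 of the 4 genes. The 250 bases upstream of each gene's start are shown because Chrm1 and Chrm4 had probe sets that were highest in the nucleus accumbens. Slc18a3 was highest there too, but with septum next in its regional order. Capitals mark the GC box GGGCGG, searched as GGGCGG and CCGCCC. The windows are in the GRCr8 build, at chr1:214996109-214996358 on the plus strand for Chrm1, chr3:98348830-98349079 on the plus strand for Chrm4 and chr16:7722815-7723064 on the minus strand for Slc18a3.
Chrm1: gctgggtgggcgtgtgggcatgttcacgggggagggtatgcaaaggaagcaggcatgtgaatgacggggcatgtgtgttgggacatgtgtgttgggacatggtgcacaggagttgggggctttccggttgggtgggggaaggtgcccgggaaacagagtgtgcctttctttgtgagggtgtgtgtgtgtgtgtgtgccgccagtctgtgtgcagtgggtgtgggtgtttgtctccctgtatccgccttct
Chrm4: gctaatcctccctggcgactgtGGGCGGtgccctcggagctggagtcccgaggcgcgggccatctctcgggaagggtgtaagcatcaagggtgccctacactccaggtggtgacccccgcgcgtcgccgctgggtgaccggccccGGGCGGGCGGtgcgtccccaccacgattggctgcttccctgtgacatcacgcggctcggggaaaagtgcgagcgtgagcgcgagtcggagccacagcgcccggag
Slc18a3: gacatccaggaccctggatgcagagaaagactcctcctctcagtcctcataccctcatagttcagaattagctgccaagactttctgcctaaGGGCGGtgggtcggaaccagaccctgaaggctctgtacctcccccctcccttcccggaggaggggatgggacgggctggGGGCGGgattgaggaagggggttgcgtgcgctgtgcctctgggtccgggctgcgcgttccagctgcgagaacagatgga
The Chrm4 window holds 3 GC boxes, of which a pair overlaps by sharing GG, the Slc18a3 window holds 2 and the Chrm1 window holds 0. Of 33469 promoter windows of this length, 30.5% hold a GC box. The motif TATAAA, searched with its reverse TTTATA, is in 0 of the 3 windows and in 12.9% of the 33469. GC content was 58.8% for Chrm1, 70.4% for Chrm4 and 61.6% for Slc18a3, against a median of 51.2% over the windows. In RefSeq, Slc18a3 lies inside the bounds of Chat, the gene of choline acetyltransferase, on chromosome 16, while Chrm4 and Chrm5 are both on chromosome 3.

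Values are the logarithm to base 2 (log2) of the array signal after each array was scaled to the same trimmed mean of 500, with a floor at a signal of 32 (log2 of 5), so that a value of 5.00 is only an upper bound. A probe set was tested in a region where its mean reached a signal of 100 (log2 of 6.64), and across regions where it reached that level in at least 1 region. Tests are limma's, with p-values adjusted by the Benjamini-Hochberg method over all probe sets of a contrast and called under 0.05. Between 17.3% and 25.1% of the probe sets lay at the floor on an array. The region labels matched their marker genes: 11 of 11 tested probe sets of striatal projection neuron markers were higher in nucleus accumbens than elsewhere, 8 of 8 of dopamine neuron markers in ventral tegmental area and 15 of 18 of cortical projection neuron markers in medial prefrontal cortex. Of all 858 probe sets tested across regions, 65.9%, 68.5% and 67.2% were called in these regions, in either direction. The marker counts were set in part by the filter, which some markers reached only where they are high. An example is Slc6a3, the dopamine transporter, with a mean of 12.03 in ventral tegmental area and 5.71 in lateral hypothalamus, the next highest.

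Some arrays stood apart. The 3 medial prefrontal cortex arrays numbered 3, one in each access group, had a beta-actin 3′ to 5′ control difference of 1.35 to 1.93 on the log2 scale, above the range of -0.28 to 0.78 on the other 60 arrays, and their glyceraldehyde-3-phosphate dehydrogenase control difference was 0.76 to 1.47, against -0.01 to 0.87. The 4 lateral hypothalamus arrays of the no access group had a mean antisense control level of 7.84 to 8.33, against 6.55 to 7.09 on the other 8 lateral hypothalamus arrays. In ventral tegmental area this control did not overlap between access groups. It was 7.07 to 7.13 with no, 7.32 to 7.49 with short and 7.82 to 8.16 with long access. Spike-in controls there averaged 11.40 to 11.68, 11.85 to 12.01 and 12.25 to 12.44 in the same order. The part of these controls in the access contrasts was not tested. Results that rest on the prefrontal arrays numbered 3 are given with and without them below.

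Among the muscarinic receptors, Chrm1 and the regionally varying Chrm4 probe set had their highest means in nucleus accumbens, where Chrm1 did not differ from amygdala, and Chrm5 was highest in ventral tegmental area. The transporter Slc18a3 was highest in nucleus accumbens and septum. No contrast between access groups was called for any of the 4 genes. Across regions, 25 of the 42 tests of a region against the mean of the other 5 were called, and 53 of the 105 tests between pairs of regions. The share of all 858 tested probe sets called in the same tests was 65.9% in nucleus accumbens, 50.9% in septum, 67.2% in medial prefrontal cortex, 50.1% in amygdala, 55.5% in lateral hypothalamus and 68.5% in ventral tegmental area, so most genes of this array differ between these regions. The members' counts of called probe sets, out of 7, were 5 (all higher), 4, 4, 3, 3 and 6 in the same order of regions, which is near that background. Of those higher in nucleus accumbens, Chrm1 AJ006522mRNA_at and Chrm4 M16409_at had reached the filter there alone. In whole tissue, fewer cells of a type and less RNA per cell cannot be told apart.

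Between pairs of regions, the called members out of 7 can be set beside the share of all 858 probe sets. Nucleus accumbens was called apart from septum by 3 members (51.9% of all probe sets), from medial prefrontal cortex by 4 (61.4%), from amygdala by 3 (47%), from lateral hypothalamus by 5 (63.3%) and from ventral tegmental area by 6 (72.1%). Septum was called apart from medial prefrontal cortex by 4 (63.9%), from amygdala by 4 (52.2%), from lateral hypothalamus by 2 (49.5%) and from ventral tegmental area by 3 (60.1%). Medial prefrontal cortex was called apart from amygdala by 3 (48.1%), from lateral hypothalamus by 3 (66.7%) and from ventral tegmental area by 3 (70.4%). Amygdala was called apart from lateral hypothalamus by 3 (57%) and from ventral tegmental area by 5 (66%), and lateral hypothalamus from ventral tegmental area by 2 (45.1%). In each called pair with nucleus accumbens the member was higher there, except Chrm5 against ventral tegmental area. For Chrm1 AJ006522mRNA_at and Chrm4 M16409_at, which reached the filter in nucleus accumbens alone, this direction was set in part by the filter. Some of these counts hold both probe sets of a gene, which are not independent.

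**Figure D1:**
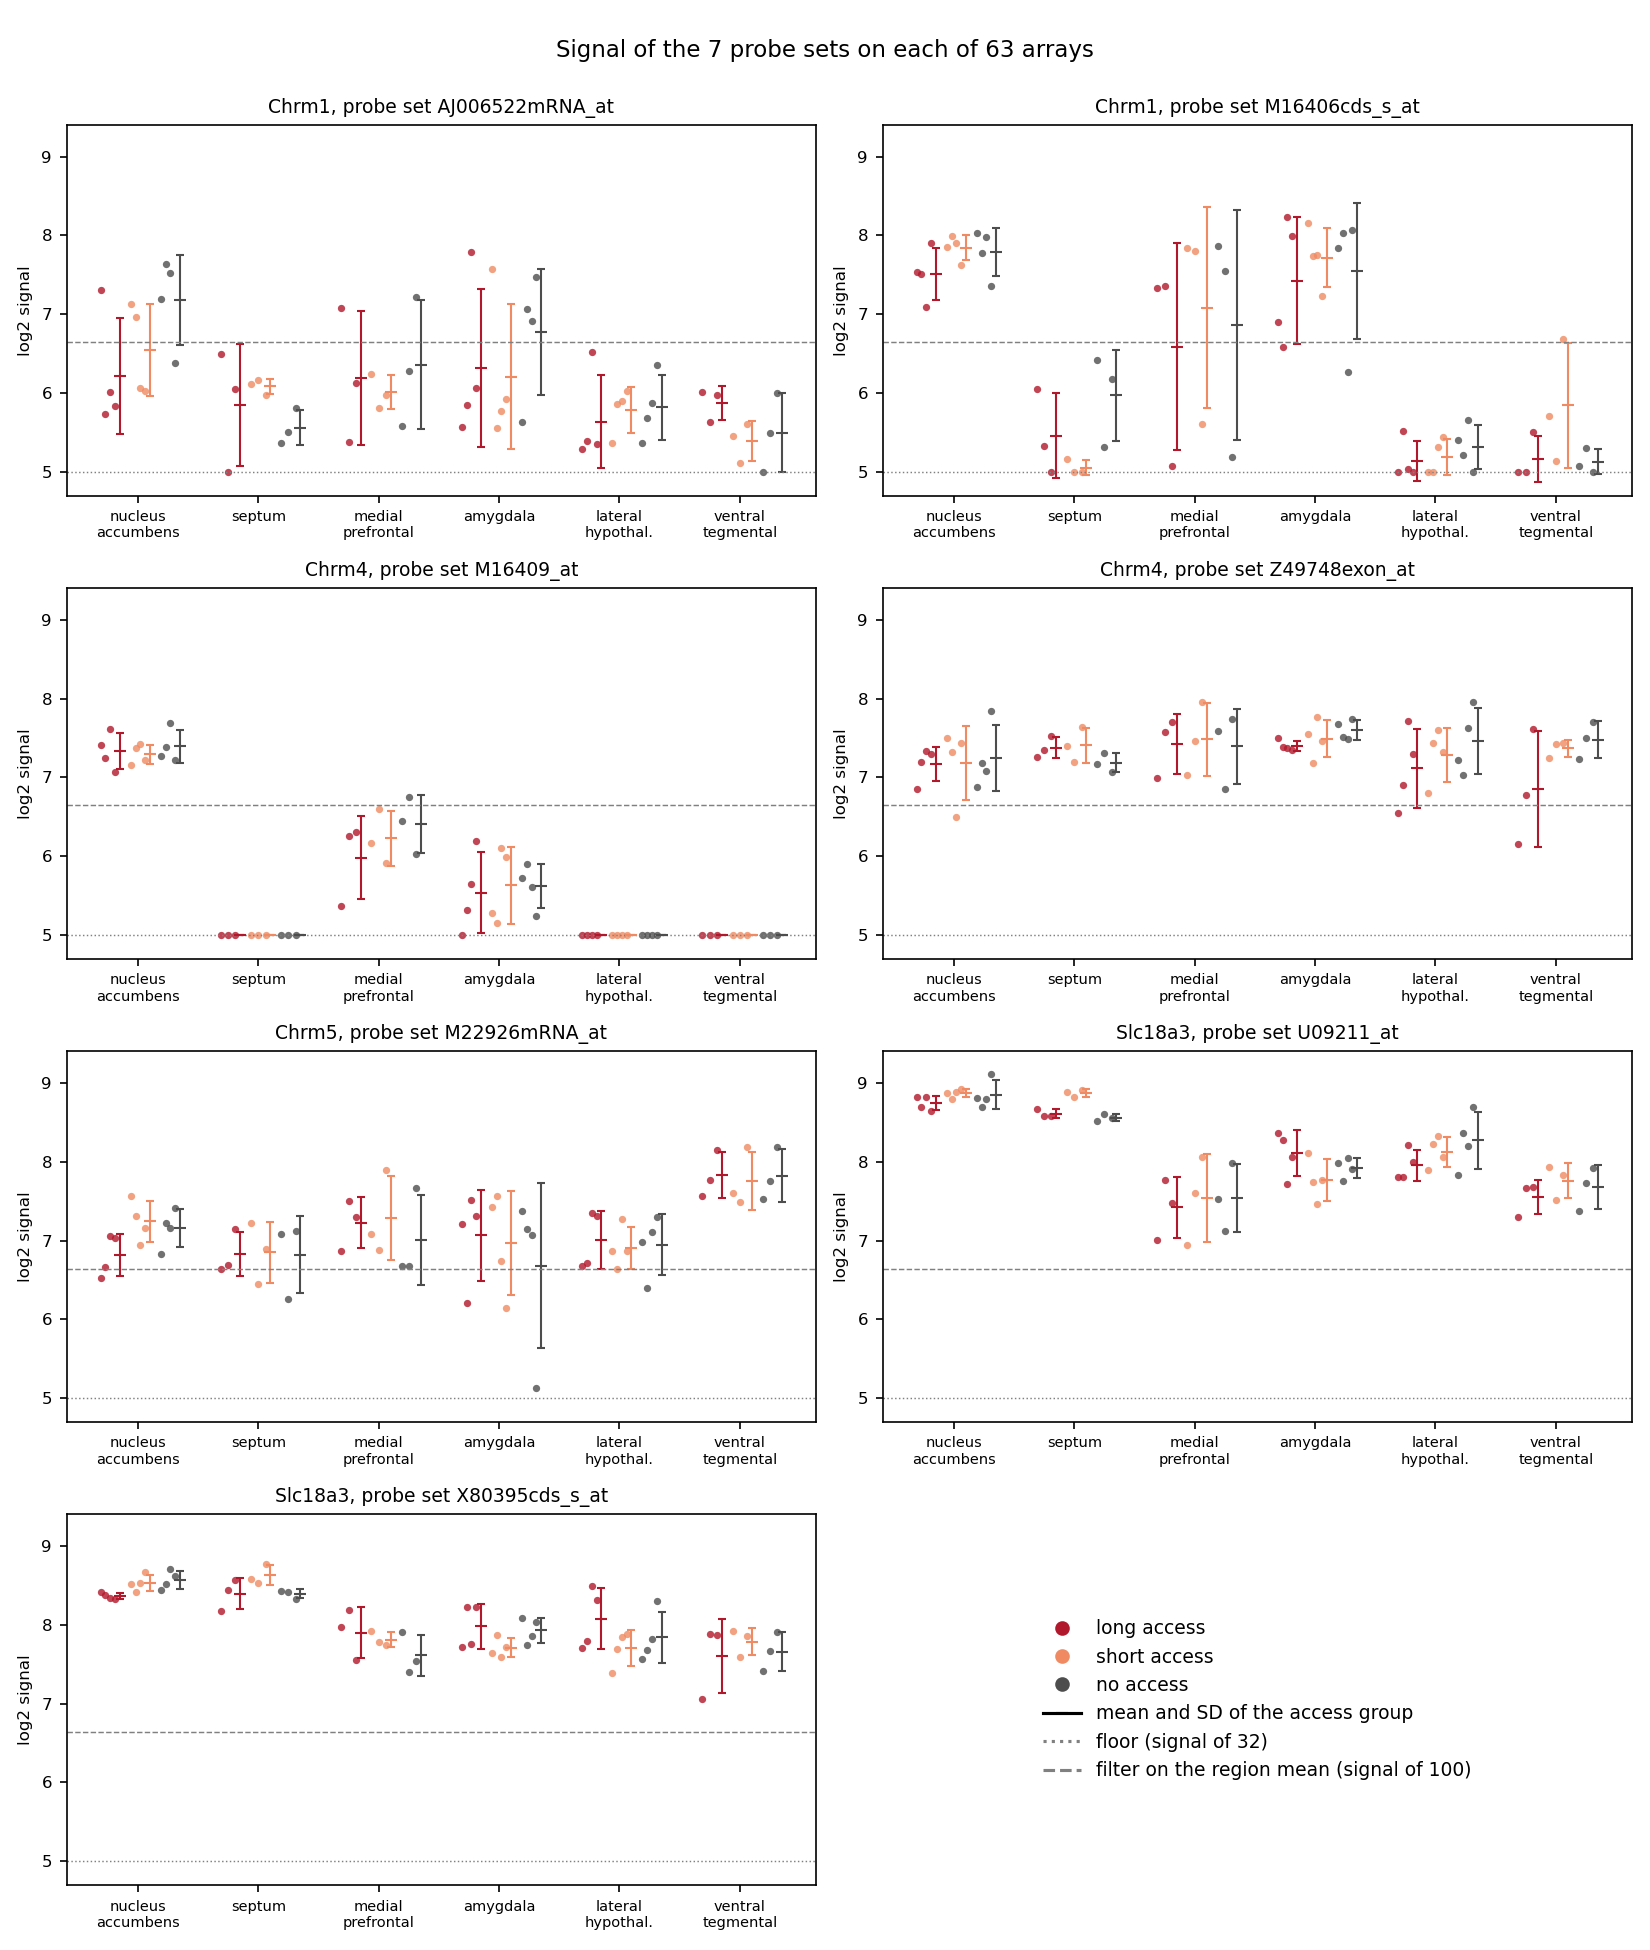
Log2 signal of the 7 probe sets on each of the 63 arrays (y axis, log2 of the scaled signal), by brain region and, within a region, by access group; each point is an array, and bars give the mean and SD of a group. The dotted line is the floor at 5 and the dashed line the filter level of 6.64. Chrm4 M16409_at lies on the floor on every array of septum, lateral hypothalamus and ventral tegmental area, while its partner Z49748exon_at stays between 6.15 and 7.96 in all regions.

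Chrm1 encodes the M1 receptor, a postsynaptic receptor of forebrain neurons. The probe set M16406cds_s_at had a lowest, median and highest log2 signal of 7.10, 7.82 and 8.03 over the 12 nucleus accumbens arrays. In amygdala these values were 6.27, 7.80 and 8.23, and in medial prefrontal cortex 5.08, 7.36 and 7.86. In septum they were 5.00, 5.32 and 6.42, in ventral tegmental area 5.00, 5.14 and 6.69, and in lateral hypothalamus 5.00, 5.13 and 5.66. The 12 nucleus accumbens arrays lay above every array of septum, ventral tegmental area and lateral hypothalamus, and the last 3 regions sat near the floor, with 11 of their arrays on it. Against the mean of the other 5 regions, Chrm1 was 3.06-fold higher in nucleus accumbens (log2 difference 1.61 ± 0.20 SE, adjusted p = 1.03e-09), 2.7-fold higher in amygdala (1.44 ± 0.20, adjusted p = 3.82e-08) and 1.49-fold higher in medial prefrontal cortex (0.57 ± 0.23, adjusted p = 0.0249). It was lower in lateral hypothalamus (-1.38 ± 0.20, adjusted p = 6.91e-08), ventral tegmental area (-1.19 ± 0.23, adjusted p = 9.66e-06) and septum (-1.05 ± 0.23, adjusted p = 0.000113). Because this probe set passed the filter through nucleus accumbens, amygdala and medial prefrontal cortex alone, its being higher in some of them was set in part by the filter.

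In the order of Chrm1 levels by this probe set, nucleus accumbens and amygdala did not differ beyond their spread (difference 0.15, adjusted p = 0.677), amygdala was above medial prefrontal cortex by 0.72 (adjusted p = 0.0306), and medial prefrontal cortex was above septum by 1.35 (adjusted p = 0.000107). Septum, ventral tegmental area and lateral hypothalamus did not differ from their neighbours in the order. Of the 15 pairs of regions, 11 were called.

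The place of medial prefrontal cortex in that order rested on its arrays numbered 3. There Chrm1 M16406cds_s_at read 5.08 with long access, 5.61 with short access and 5.19 with no access. The arrays numbered 1 and 2 read 7.33 and 7.36 with long access, 7.84 and 7.80 with short access, and 7.86 and 7.55 with no access. The low arrays thus occur once in every access group and are the same arrays that had the highest actin 3′ to 5′ difference. Their mean level of cortical projection neuron markers was 9.19 to 9.37, against 9.30 to 9.58 on the other 6 prefrontal arrays, and striatal projection neuron markers averaged 6.94 to 7.16, against 6.79 to 7.35. The part of the 3′ to 5′ control difference in the Chrm1 reading was not tested.

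Without these 3 arrays, Chrm1 averaged 7.62 ± 0.24 (SD, n = 6) in medial prefrontal cortex, against 6.85 ± 1.19 with all 9. Its difference from the other 5 regions was then 1.35 ± 0.19 (adjusted p = 2.99e-08), in place of 0.57. That first value of 0.57 fell short of the threshold when any single one of the other 6 prefrontal arrays was left out (0.41 to 0.46, adjusted p of 0.0941 to 0.131). The difference of medial prefrontal cortex from amygdala became 0.06 ± 0.22 (adjusted p = 0.849), in place of -0.72, which was itself lost without any 1 of 8 arrays, and that of nucleus accumbens from medial prefrontal cortex became 0.09 ± 0.22 (adjusted p = 0.757), in place of 0.87 (adjusted p = 0.00653). By the 6 remaining prefrontal arrays, the 3 forebrain regions therefore had no called difference from each other.

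**Figure D2:**
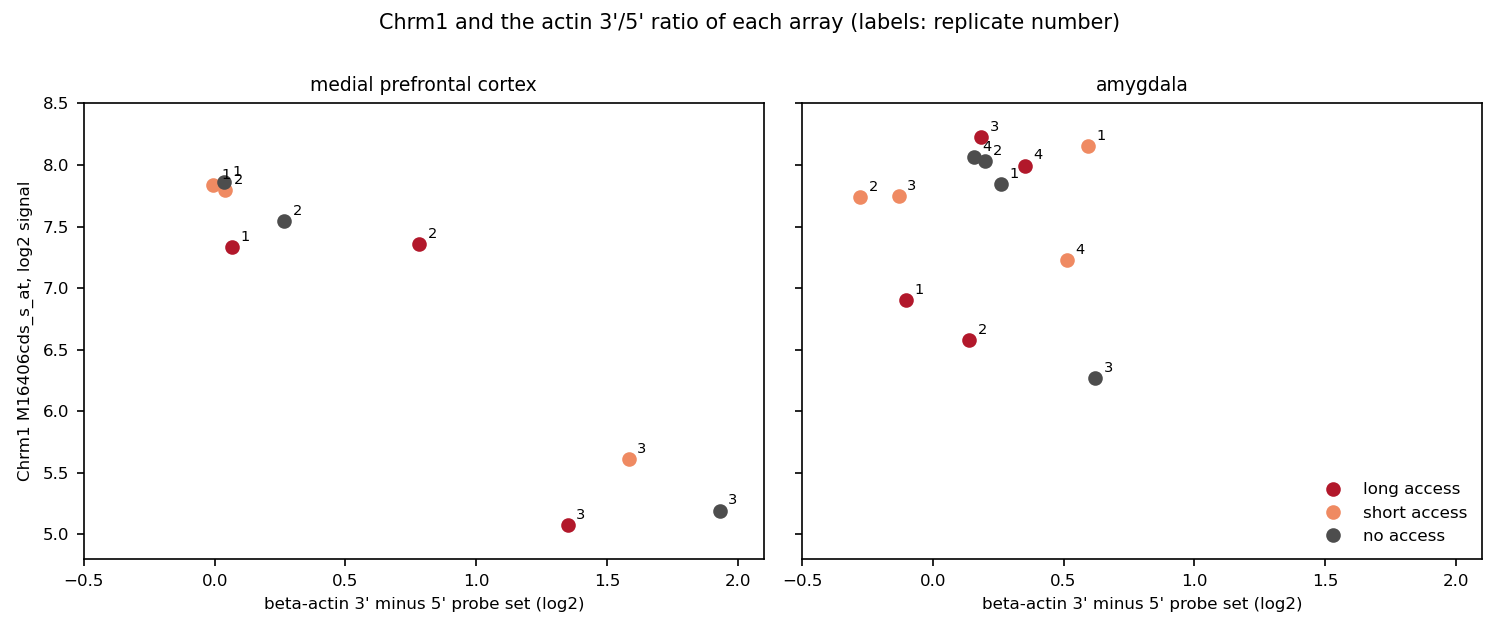
Chrm1 M16406cds_s_at log2 signal (y axis) against the beta-actin 3′ minus 5′ control difference (x axis, log2) on each array of medial prefrontal cortex and amygdala, labelled by replicate number and coloured by access group. The 3 prefrontal arrays numbered 3 lie at 1.35 to 1.93 on the x axis with Chrm1 at 5.08 to 5.61, while the other 6 prefrontal arrays read at least 7.33.

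In amygdala, Chrm1 M16406cds_s_at ran lower on 3 arrays. It read 6.90, 6.58, 8.23 and 7.99 with long access, 8.15, 7.74, 7.75 and 7.23 with short access, and 7.85, 8.03, 6.27 and 8.06 with no access. The array at 6.27 had an actin difference of 0.62, the short access array at 8.15 had 0.59, and the arrays at 6.90 and 6.58 had -0.10 and 0.14. The mean antisense control level was 7.98 on the array at 6.27, 7.16 on that at 6.90 and 7.22 on that at 6.58. On the other amygdala arrays it was 6.26 to 6.77. The part of these controls in the amygdala readings was not tested.

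The second Chrm1 probe set, AJ006522mRNA_at, gave lower and more scattered signals. Its lowest, median and highest values there were 5.73, 6.67 and 7.64. In amygdala they were 5.56, 6.00 and 7.79, in medial prefrontal cortex 5.38, 6.13 and 7.22, and in septum 5.00, 5.98 and 6.50. Lateral hypothalamus had 5.29, 5.77 and 6.52, and ventral tegmental area 5.00, 5.61 and 6.02. All regions overlapped in this probe set, though 6 of the 12 nucleus accumbens arrays lay above every array of septum, lateral hypothalamus and ventral tegmental area. It was higher in nucleus accumbens than in the other 5 regions (0.69 ± 0.20, 1.62-fold, adjusted p = 0.00176), a high place set in part by the filter, which it reached only there, and lower in ventral tegmental area (-0.58 ± 0.22, adjusted p = 0.0171). The ventral tegmental area call was lost without the no access array numbered 1 of that region (-0.50, adjusted p = 0.0576) and with a floor of 64 (-0.35, adjusted p = 0.0623). The differences of amygdala (0.43, adjusted p = 0.0629) and lateral hypothalamus (-0.39, adjusted p = 0.0845) were not called, nor was any step between neighbours in the order; 5 of the 15 pairs were. The correlation between the 2 Chrm1 probe sets over the 63 arrays was 0.49, a description of arrays that share regions.

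Chrm4 encodes the M4 receptor, and its 2 probe sets went separate ways. M16409_at had a lowest, median and highest signal of 7.07, 7.32 and 7.70 in nucleus accumbens, 5.37, 6.26 and 6.75 in medial prefrontal cortex, and 5.00, 5.63 and 6.19 in amygdala. In septum, lateral hypothalamus and ventral tegmental area 9 of 9, 12 of 12 and 9 of 9 arrays were at the floor. The 12 nucleus accumbens arrays lay above the other 51. By the floor, nucleus accumbens was at least 5.06-fold above each of the 3 regions at the floor, medial prefrontal cortex at least 2.31-fold and amygdala at least 1.51-fold.

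Each step down the order of Chrm4 M16409_at was called as far as the floor. Nucleus accumbens exceeded medial prefrontal cortex by 1.13 ± 0.13 (adjusted p = 3.57e-11), medial prefrontal cortex exceeded amygdala by 0.61 ± 0.13 (adjusted p = 7.3e-05; 0.63 with adjusted p = 0.0778 when no floor was set), and amygdala exceeded septum by 0.60 ± 0.13 (adjusted p = 6.44e-05; not called with a floor of 64). Against the mean of the other 5 regions the difference was 1.98 ± 0.09 in nucleus accumbens (3.94-fold, adjusted p = 2.05e-25) and 0.62 ± 0.10 in medial prefrontal cortex (adjusted p = 6.07e-07). It was -0.83 in each of septum, lateral hypothalamus and ventral tegmental area, a size set by the floor, and all 3 were called. The arrays at the floor have no spread, which narrows the SEs of these region tests. With no floor the limma difference was 3.36 ± 0.22 in nucleus accumbens (adjusted p = 3.32e-19). In medial prefrontal cortex it was then 2.00 ± 0.25 (adjusted p = 5.98e-10). The amygdala difference was -0.11 ± 0.09 (adjusted p = 0.314); with no floor it was 1.24 (adjusted p = 4.34e-06) and with a floor of 64 it was -0.30 (adjusted p = 1.69e-06). With a floor of 64 the prefrontal difference was 0.01 (adjusted p = 0.864). M16409_at passed the filter through nucleus accumbens alone, so its high place there was set in part by the filter.

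Marker levels set nucleus accumbens apart too, but below it they did not follow this regional order. Striatal projection neuron markers averaged between 9.76 and 10.27 on nucleus accumbens arrays, against 6.79 to 8.25 on the other 51, and their part in the Chrm4 and Chrm1 differences was not tested. Their level was 7.40 to 8.25 in amygdala and 6.79 to 7.35 in medial prefrontal cortex.

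The other Chrm4 probe set, Z49748exon_at, showed no regional difference. It read between 6.49 and 7.84 with a median of 7.24 in nucleus accumbens, between 7.07 and 7.64 with a median of 7.31 in septum, and between 6.85 and 7.95 with a median of 7.57 in medial prefrontal cortex. In amygdala it lay between 7.19 and 7.76 with a median of 7.49, in lateral hypothalamus between 6.55 and 7.96 with a median of 7.31, and in ventral tegmental area between 6.15 and 7.70 with a median of 7.42. All 6 regions overlapped, including the 3 in which M16409_at was at the floor. Of its 6 tests against the other regions 0 were called, the smallest p being that of amygdala (0.20 ± 0.11, adjusted p = 0.137), and 0 of 15 pairs were. The correlation between the Chrm4 probe sets over 63 arrays was -0.07, so a statement on Chrm4 by region holds for M16409_at only.

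Chrm5 encodes the M5 receptor and was highest in the ventral tegmental area, where the midbrain dopamine neurons lie. M22926mRNA_at read 7.57, 7.77 and 8.15 there with long access, 7.61, 7.49 and 8.18 with short access, and 7.53, 7.76 and 8.19 with no access. The access groups overlapped closely, and the array numbered 3 was the highest in each. Lowest, median and highest values were 6.68, 7.08 and 7.89 in medial prefrontal cortex and 6.53, 7.10 and 7.57 in nucleus accumbens. They were 6.40, 6.93 and 7.35 in lateral hypothalamus, 5.13, 7.18 and 7.57 in amygdala, and 6.26, 6.90 and 7.22 in septum. The lowest ventral tegmental area array lay above every lateral hypothalamus and septum array, and overlapped the highest arrays of the other 3 regions.

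Against the mean of the other 5 regions, Chrm5 was 1.76-fold higher in ventral tegmental area (0.82 ± 0.17, adjusted p = 2.88e-05), and its other 5 regional tests were not called. It was above its nearest neighbour, medial prefrontal cortex, by 0.63 ± 0.22 (adjusted p = 0.00951). The differences of the remaining regions from ventral tegmental area were -0.73 for nucleus accumbens (adjusted p = 0.0015), -0.85 for lateral hypothalamus (adjusted p = 0.00061), -0.90 for amygdala (adjusted p = 0.000147) and -0.97 for septum (adjusted p = 0.000161). Below ventral tegmental area no neighbours in the order differed beyond their spread, and none of the 10 pairs among the other regions was called. Unlike M16406cds_s_at and M16409_at, this probe set reached the filter in all 6 regions. Dopamine neuron markers averaged between 11.07 and 11.30 on the ventral tegmental area arrays, against 5.34 to 7.35 on the other 54, and their part in the Chrm5 difference was not tested.

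**Figure D3:**
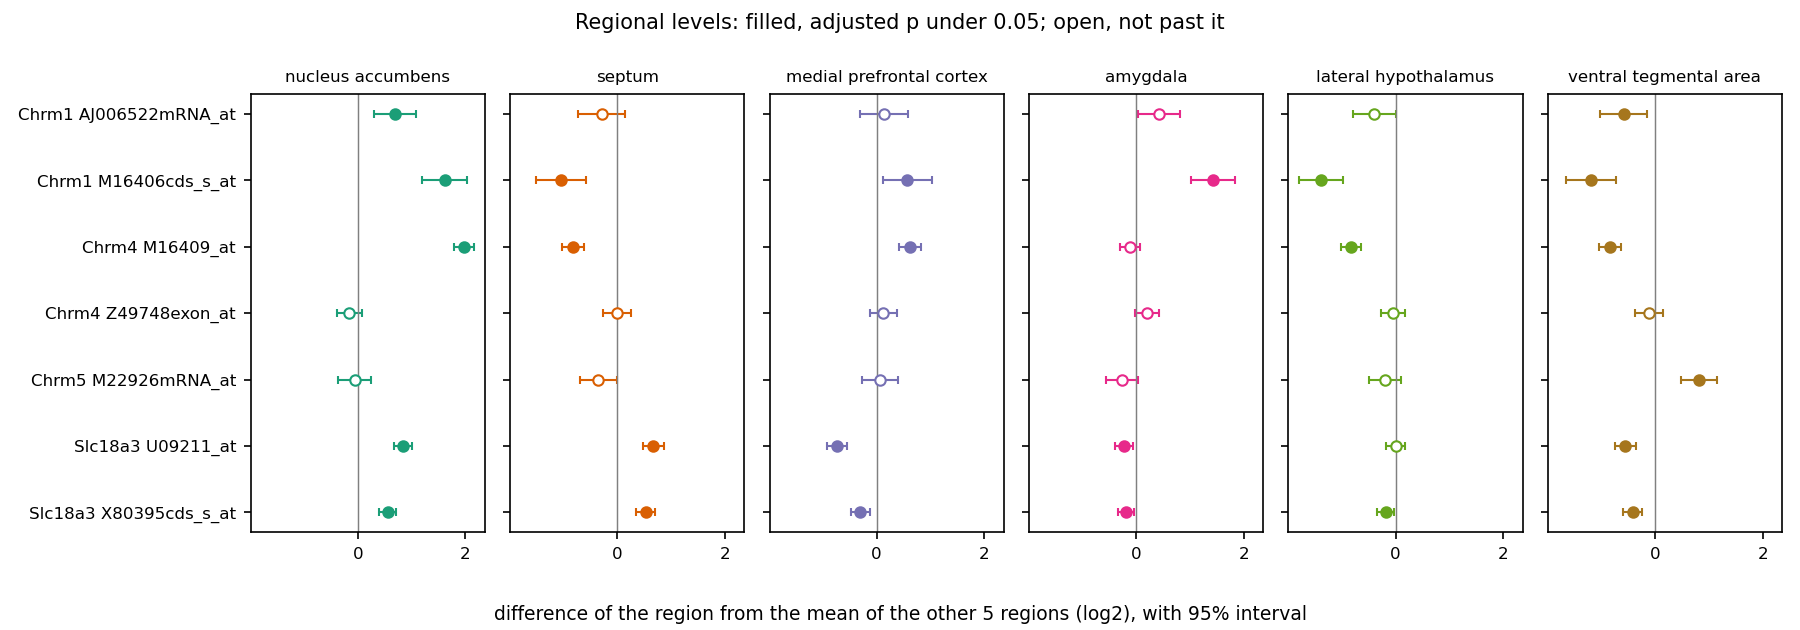
Difference of each region from the mean of the other 5 (x axis, log2) for the 7 probe sets, with 95% intervals; filled points have an adjusted p under 0.05. Chrm1 and Chrm4 M16409_at lie farthest to the right in nucleus accumbens, Chrm5 is filled in ventral tegmental area only, and both Slc18a3 probe sets are filled to the right in nucleus accumbens and septum.

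Slc18a3, the transporter, had its high levels in nucleus accumbens and septum by both probe sets. U09211_at had a lowest, median and highest signal of 8.64, 8.81 and 9.11 in nucleus accumbens and 8.51, 8.60 and 8.91 in septum. In lateral hypothalamus the values were 7.80, 8.13 and 8.70, in amygdala 7.47, 7.95 and 8.37, in ventral tegmental area 7.30, 7.68 and 7.93, and in medial prefrontal cortex 6.95, 7.52 and 8.06. Nucleus accumbens and septum overlapped each other; a single lateral hypothalamus array reached into their range, and no array of the remaining 3 regions did. Against the mean of the other 5 regions, nucleus accumbens was 1.79-fold higher (0.84 ± 0.08, adjusted p = 8.57e-13) and septum 1.59-fold higher (0.67 ± 0.09, adjusted p = 2.65e-08). Medial prefrontal cortex (-0.74 ± 0.09, adjusted p = 1.08e-09), ventral tegmental area (-0.55 ± 0.09, adjusted p = 1.04e-06) and amygdala (-0.22 ± 0.08, adjusted p = 0.0231) were lower, and lateral hypothalamus lay at the mean (0.00, adjusted p = 0.993). The amygdala call was lost when its array numbered 3 of long access, 3 of short access or 2 of no access was left out (adjusted p of 0.0504 to 0.0789).

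X80395cds_s_at had the same regions on top. Its lowest, median and highest values were 8.32, 8.48 and 8.71 in nucleus accumbens and 8.17, 8.44 and 8.77 in septum. Lateral hypothalamus had 7.39, 7.81 and 8.49, amygdala 7.59, 7.80 and 8.22, medial prefrontal cortex 7.40, 7.78 and 8.19, and ventral tegmental area 7.06, 7.85 and 7.92. The lower 4 regions overlapped throughout, and lateral hypothalamus, amygdala and medial prefrontal cortex each had at least 1 array above the lowest septum value. The differences from the other 5 regions were 0.55 ± 0.08 in nucleus accumbens (1.47-fold, adjusted p = 1.49e-08) and 0.53 ± 0.09 in septum (1.45-fold, adjusted p = 9.45e-07), against -0.41 ± 0.09 in ventral tegmental area (adjusted p = 4.01e-05) and -0.30 ± 0.09 in medial prefrontal cortex (adjusted p = 0.00222). Amygdala (-0.19 ± 0.08, adjusted p = 0.0417) and lateral hypothalamus (-0.18 ± 0.08, adjusted p = 0.041) were called by a small margin, and leaving out any of 13 arrays for amygdala or of 12 for lateral hypothalamus lost the call, as did quantile normalization for lateral hypothalamus (-0.10, adjusted p = 0.213). Without the prefrontal arrays numbered 3 the prefrontal difference was -0.22 ± 0.10 (adjusted p = 0.0582), and without the no access arrays of lateral hypothalamus the difference of that region was -0.17 (adjusted p = 0.124).

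The step that both Slc18a3 probe sets shared was the one below septum. Septum exceeded lateral hypothalamus by 0.56 ± 0.11 with U09211_at (adjusted p = 5.11e-05) and by 0.60 ± 0.11 with X80395cds_s_at (adjusted p = 5.59e-06). Nucleus accumbens and septum were not called apart by U09211_at (0.14, adjusted p = 0.315) or by X80395cds_s_at (0.02, adjusted p = 0.911). U09211_at added a step between amygdala and ventral tegmental area (0.27, adjusted p = 0.0333, and 0.15 with adjusted p = 0.231 after quantile normalization; lost without any 1 of 6 arrays), where X80395cds_s_at had none. Without the prefrontal arrays numbered 3, U09211_at in medial prefrontal cortex minus ventral tegmental area was -0.33 ± 0.12 (adjusted p = 0.0165). With all arrays that step was not called (adjusted p = 0.242). Of 15 pairs of regions, 12 were called with U09211_at and 8 with X80395cds_s_at on all arrays, and the correlation of the probe sets over the 63 arrays was 0.80.

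Other genes were higher beside Slc18a3 in septum. Of the choroid plexus and ependyma markers 9 of 11 tested probe sets were higher in septum than in the other regions, and their mean level was 8.85 to 9.08 on septum arrays, against 6.76 to 8.45 on the other 54. Oligodendrocyte markers were higher there in 11 of 11, with a mean level of 11.48 to 11.61, against 8.87 to 12.03, and astrocyte markers in 12 of 17. Oligodendrocyte levels were higher still in lateral hypothalamus (11.71 to 12.03) and ventral tegmental area (11.81 to 12.03). Of all 858 probe sets, 50.9% were called in septum, in either direction. The part of these marker genes in the Slc18a3 difference was not tested. Of the cholinergic neuron markers listed, the array named 2 genes, Slc18a3 itself and Ngfr, a neurotrophin receptor of basal forebrain cholinergic neurons; Ngfr X05137_at was higher in septum (0.78, adjusted p = 3.21e-11) and lateral hypothalamus (0.22, adjusted p = 0.0109) and lower in ventral tegmental area (-0.31, adjusted p = 0.00107) and medial prefrontal cortex (-0.43, adjusted p = 1.13e-05), and it was not called in nucleus accumbens (-0.10, adjusted p = 0.233), where Slc18a3 was highest. The other Ngfr probe set, U25650_f_at, was not called in septum (0.13, adjusted p = 0.305).

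Among the other genes of acetylcholine signalling, Chrm3, the remaining muscarinic receptor with a tested probe set, ran opposite to Chrm1 and Chrm4 in nucleus accumbens. Chrm3 M16407_at was lower there than in the other 5 regions (-0.87 ± 0.07, adjusted p = 1.44e-16) and higher in medial prefrontal cortex (0.95 ± 0.08, adjusted p = 3.32e-16) and amygdala (0.46 ± 0.07, adjusted p = 7.48e-08). It was also lower in ventral tegmental area (-0.59 ± 0.08, adjusted p = 1.32e-09). Both Chrm2 probe sets, the second Chrm3 probe set and the single probe set of Ache, the acetylcholine-degrading enzyme, stayed below the filter in every region and were not tested.

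Nicotinic receptor subunits, which form acetylcholine-gated ion channels, had 10 tested probe sets. Of these, 5 reached the filter in ventral tegmental area alone, so that their being higher there was set by the filter and is given as a description. Their differences in ventral tegmental area were 3.39 for Chrna6, 1.66 for Chrna5, 1.89 for Chrnb3 and 1.66 for Chrna3, and the remaining subunit was Chrna4. They were not all lower elsewhere. Chrna5 was higher in medial prefrontal cortex (0.66, adjusted p = 9.83e-09) and Chrna4 in lateral hypothalamus (0.57, adjusted p = 0.00576), both below the filter there. Of the 5 that reached the filter in several regions, 0 were called in ventral tegmental area, nucleus accumbens, septum or amygdala, 3 were lower in medial prefrontal cortex and 1 was higher in lateral hypothalamus.

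The transduction genes listed with the receptors, G protein subunits, phospholipases, kinases and channels, had 26 tested probe sets. In nucleus accumbens 14 were higher, 2 of which had reached the filter in that region alone, and 6 lower, with a median difference of 0.26, against -0.01 over all probe sets tested. Examples are Prkcb (1.36 ± 0.08, adjusted p = 2.00e-21), a protein kinase C, and Itpr1 (1.36 ± 0.08, adjusted p = 3.20e-20), the inositol trisphosphate receptor, both downstream of Gq-coupled receptors such as M1. In ventral tegmental area 4 were higher and 18 lower, with a median of -0.42, against 0.01, and in septum 5 were higher and 12 lower, with a median of -0.16, against 0.04. Of the 24 that reached the filter in several regions, 16 were lower in ventral tegmental area and 10 in septum. In amygdala 16 of these 24 were higher and 1 lower, in medial prefrontal cortex 9 and 9, and in lateral hypothalamus 7 and 10. Several of the probe sets measure the same gene and are not independent. Of all 858 probe sets, 65.9% were called in nucleus accumbens, 50.1% in amygdala, 68.5% in ventral tegmental area and 50.9% in septum.

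The probe sets most similar in pattern to each member were ranked by Pearson correlation over the 63 arrays among 774 candidates (775 for Chrm5). The arrays of a region share that region, so for members that varied by region these values mainly describe likeness between regional levels. Chrm4 M16409_at was most like Hpca (0.92), Ppp3ca (0.88) and both Drd1 probe sets (0.88 and 0.84), Drd1 being the D1 dopamine receptor. Chrm1 M16406cds_s_at was most like Hpcal4 (0.86 and 0.84) and Kcnj4 (0.86 and 0.83), an inwardly rectifying potassium channel. Chrm1 AJ006522mRNA_at had weaker matches, led by Cacnb3 (0.59), with Kcnj4 second (0.53). Between members of different genes, the highest value was 0.71, for Chrm1 M16406cds_s_at with Chrm4 M16409_at.

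Slc18a3 U09211_at was most like Htr2c (0.83), the serotonin 2C receptor, and Slc32a1 (0.80), the vesicular transporter of GABA, and X80395cds_s_at was also most like Htr2c (0.73). For Chrm5 the closest were Chrna5 (0.58), Nefl (0.54), Slc6a3 (0.53), the dopamine transporter, and Chrna6 (0.52). By Spearman correlation these were 0.47, 0.38, 0.31 and 0.35. The flat Chrm4 probe set Z49748exon_at was most like Drd3 (0.66), whose regional means were also flat (9.36 to 9.67). Z49748exon_at had no called regional difference, so that value does not describe a shared regional order.

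**Figure D4:**
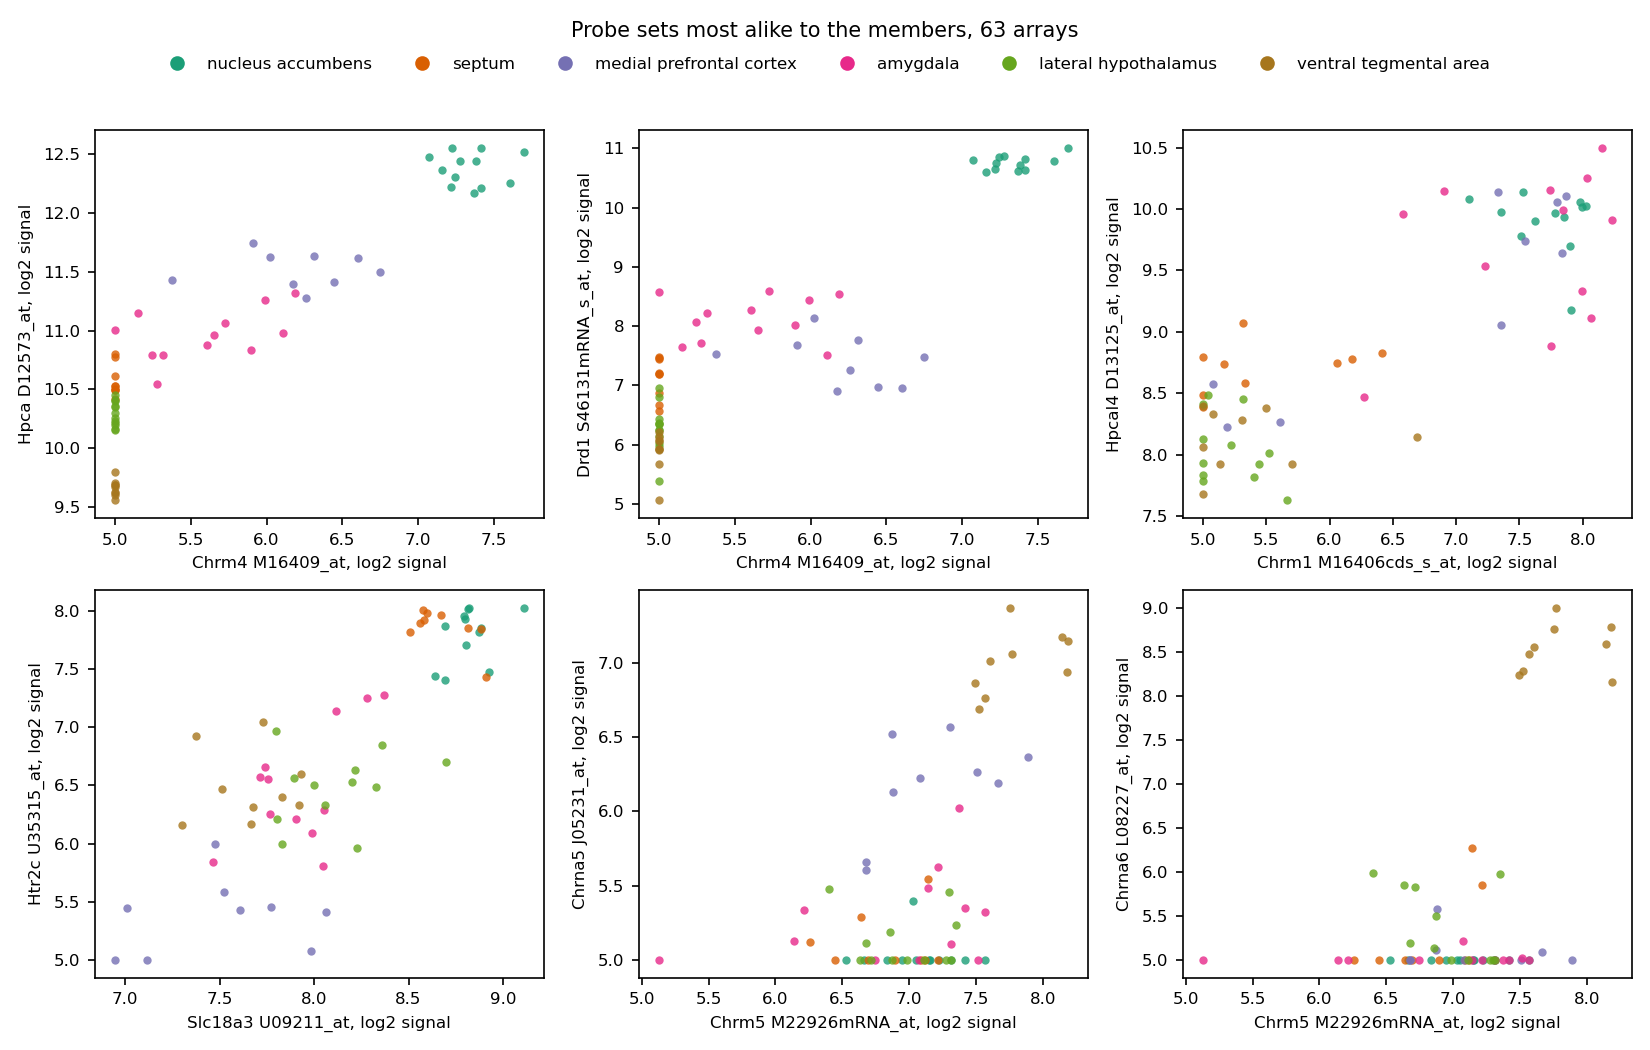
Log2 signal of a probe set ranked among the closest to a member (y axis) against that of the member (x axis) on the 63 arrays, coloured by region. The 12 nucleus accumbens arrays stand apart from the other 51 in the panels of Chrm4 M16409_at with Hpca (r = 0.92) and with Drd1, and the 9 ventral tegmental area arrays in the panels of Chrm5 with Chrna5 (r = 0.58) and Chrna6 (r = 0.52).

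Between access groups, the members were tested in 87 contrasts within regions (7 probe sets in nucleus accumbens, 5 in medial prefrontal cortex and in amygdala, 4 in the other regions). limma called 0 of the 87, and 4 had an unadjusted p under 0.05. The differences lay between -0.96 and 0.38, 36 of them positive and 51 negative. In lateral hypothalamus, where 29.7% of the 718 tested probe sets were called for long minus no access, 22.4% for short minus no access and 8.91% for long minus short access, 0 of 4 members were. In nucleus accumbens and medial prefrontal cortex the background was 0% in each contrast and in amygdala it was 0.137%, 0% and 0%, so the absence of a call there is shared by nearly all genes. In septum it was 2.31%, 1.9% and 2.04%, and in ventral tegmental area 2.91%, 0.831% and 2.63%. Array control levels also differed between access groups in lateral hypothalamus and ventral tegmental area, and their part in these shares was not tested.

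The contrast nearest to the threshold was that of the transporter in septum. Slc18a3 U09211_at read 8.67, 8.58 and 8.58 with long access, 8.88, 8.82 and 8.91 with short access, and 8.51, 8.60 and 8.56 with no access. The short access arrays lay above those of both other groups, which overlapped. The mean was 8.61 ± 0.05 with long, 8.87 ± 0.05 with short and 8.56 ± 0.04 with no access (SD, n = 3 each). Short minus no access was 0.31 ± 0.10 (1.24-fold, unadjusted p = 0.00756, adjusted p = 0.142) and long minus short access -0.26 ± 0.10 (adjusted p = 0.232). With no filter on low signals, both were called (adjusted p = 0.0248 and 0.049), among 14 and 13 of the 1263 probe sets then tested.

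The second Slc18a3 probe set gave the same order in part. X80395cds_s_at read 8.17, 8.44 and 8.56 in septum with long access, 8.58, 8.53 and 8.77 with short access, and 8.43, 8.42 and 8.33 with no access. Short access lay above no access without overlap, and overlapped long access. Short minus no access was 0.24 ± 0.13 (adjusted p = 0.421). In septum, short and no access groups did not overlap for 2 of the 4 member probe sets tested, against 20.9% of all tested probe sets. Both are probe sets of Slc18a3 and are not independent. Short and long access groups did not overlap for 1 of the 4, U09211_at, against 20.2%.

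In nucleus accumbens, X80395cds_s_at had its lowest mean with long access. It read 8.41, 8.38, 8.33 and 8.32 with long access, 8.52, 8.42, 8.53 and 8.67 with short access, and 8.44, 8.52, 8.71 and 8.62 with no access. The long access arrays lay below those of both other groups by a narrow gap. This was 1 of 7 members without overlap, against 9.76% of all tested probe sets for long and no access and 3.79% for long and short access. Long minus no access was -0.21 ± 0.10 (adjusted p = 0.321) and long minus short access -0.17 ± 0.10 (adjusted p = 0.559). U09211_at read 8.82, 8.69, 8.82 and 8.64 there with long access, 8.87, 8.80, 8.88 and 8.92 with short access, and 8.80, 8.69, 8.80 and 9.11 with no access, and its long and no access groups overlapped.

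Among the receptors in nucleus accumbens, Chrm1 AJ006522mRNA_at had the largest difference. It read 7.31, 5.73, 6.01 and 5.83 with long access, 7.13, 6.97, 6.06 and 6.03 with short access, and 7.20, 7.64, 7.52 and 6.38 with no access. A single long access array sat among the no access arrays and the other 3 below them. Long minus no access was -0.96 ± 0.39 (1.95-fold, unadjusted p = 0.0262, adjusted p = 0.231). The other Chrm1 probe set read 7.53, 7.51, 7.10 and 7.90 with long access, 7.85, 7.99, 7.90 and 7.62 with short access, and 8.03, 7.78, 7.98 and 7.36 with no access; its groups overlapped, and its smallest p was that of long minus short access (-0.33 ± 0.19, adjusted p = 0.546).

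Chrm5 in nucleus accumbens read 6.53, 6.66, 7.05 and 7.03 with long access, 7.57, 7.32, 6.94 and 7.15 with short access, and 6.83, 7.23, 7.16 and 7.42 with no access. All groups overlapped. Long minus short access was -0.43 ± 0.19 (unadjusted p = 0.0446, adjusted p = 0.487). Chrm4 M16409_at read 7.42, 7.24, 7.61 and 7.07 with long access, 7.16, 7.37, 7.42 and 7.21 with short access, and 7.27, 7.38, 7.70 and 7.23 with no access, with a difference of -0.10 ± 0.16 for short minus no access (adjusted p = 0.933). Its groups overlapped.

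Outside these regions, the flat Chrm4 probe set Z49748exon_at read 6.15, 6.78 and 7.62 in ventral tegmental area with long access, 7.25, 7.42 and 7.44 with short access, and 7.24, 7.50 and 7.70 with no access. The long access arrays were the most scattered and overlapped both other groups. Long minus no access was -0.63 ± 0.30 (adjusted p = 0.364). In lateral hypothalamus, Slc18a3 U09211_at read 7.80, 7.80, 8.22 and 8.00 with long access, 7.89, 8.23, 8.33 and 8.06 with short access, and 7.83, 8.36, 8.20 and 8.70 with no access. The groups overlapped, and long minus no access was -0.32 ± 0.17 (adjusted p = 0.196). X80395cds_s_at ran the other way in that region, with 7.70, 7.80, 8.49 and 8.32 with long access, 7.39, 7.69, 7.85 and 7.88 with short access, and 7.56, 7.68, 7.82 and 8.30 with no access; long minus short access was 0.37 ± 0.21 (adjusted p = 0.280).

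**Figure D5:**
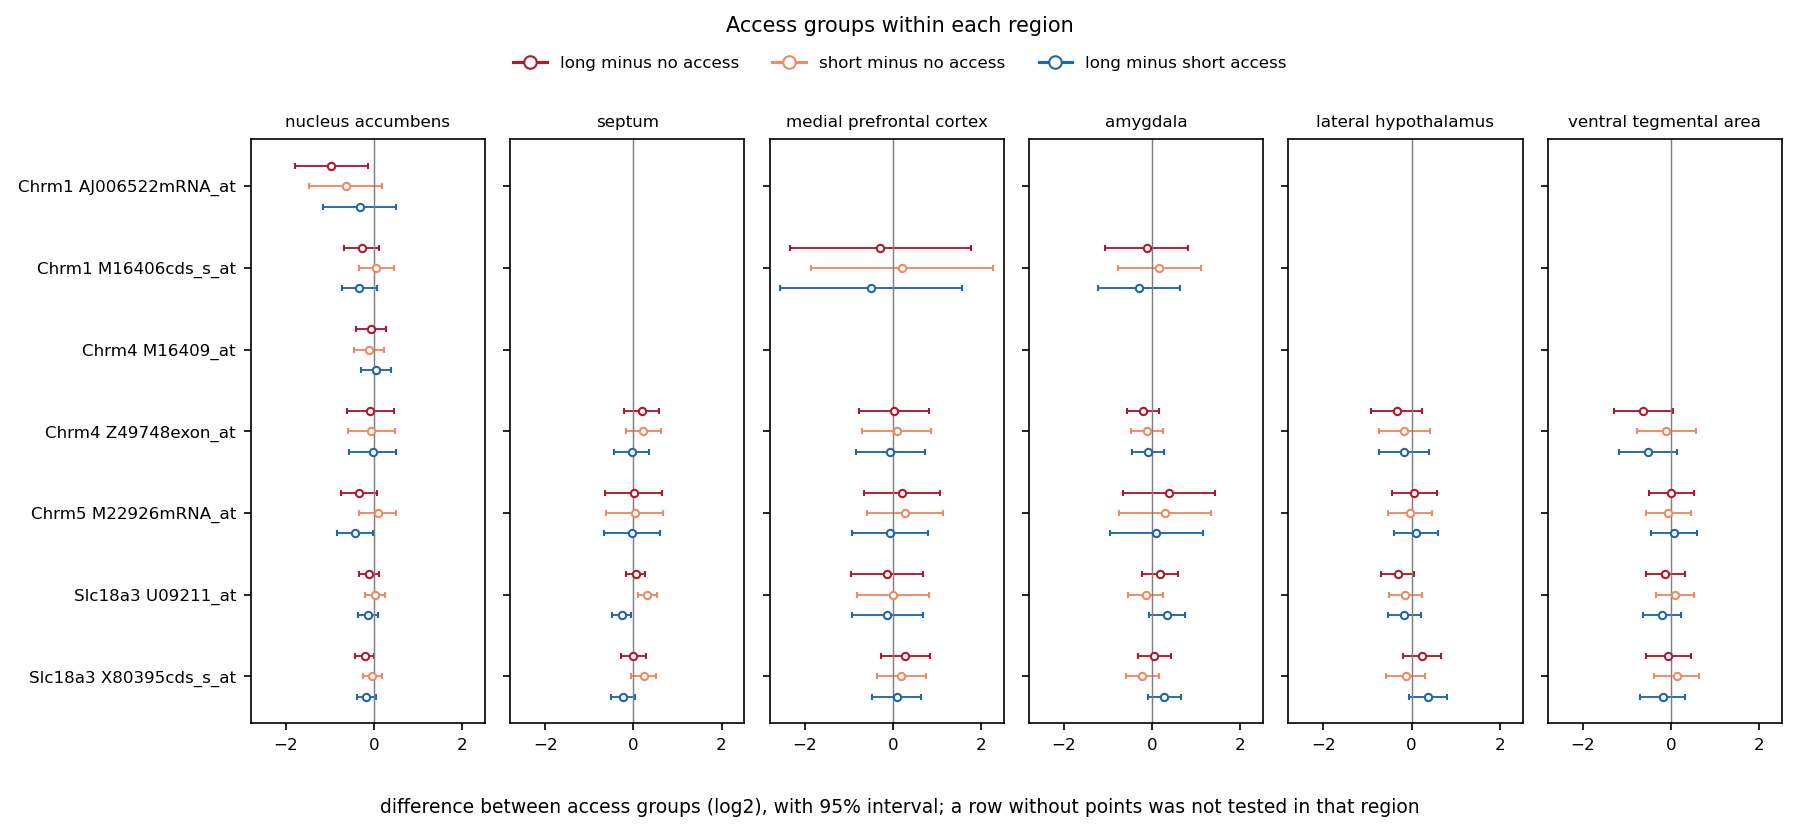
Difference between access groups within each region (x axis, log2) with 95% intervals, for the 3 contrasts of each probe set that was tested there; rows with no point were not tested. Every point is open, since 0 of the 87 had an adjusted p under 0.05, and the widest intervals are those of Chrm1 M16406cds_s_at in medial prefrontal cortex, between -2.55 and 2.27 with the arrays numbered 3 included.

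The Chrm1 M16406cds_s_at contrasts in medial prefrontal cortex rested on groups that each held 1 of the low arrays numbered 3. With all 9 arrays, long minus no access was -0.28 (95% interval -2.34 to 1.78), short minus no access 0.21 (-1.85 to 2.27) and long minus short access -0.49 (-2.55 to 1.57). Without the arrays numbered 3 the differences were -0.36 (-0.94 to 0.22), 0.11 (-0.47 to 0.69) and -0.47 (-1.05 to 0.11), on 2 arrays per group, and 0 of these 3 were called either way.

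The precision of these contrasts differed between members. The median half-width of the 95% interval was 0.34 for Chrm4 M16409_at, 0.39 for Slc18a3 U09211_at and 0.41 for X80395cds_s_at. It was 0.55 for Chrm4 Z49748exon_at, 0.58 for Chrm5, 0.83 for Chrm1 AJ006522mRNA_at and 0.93 for Chrm1 M16406cds_s_at. A missed threshold therefore leaves room for changes of that size in each gene.

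Averaged over the 6 regions, 0 of 21 member contrasts were called by limma and 0 had an unadjusted p under 0.05; of all 858 probe sets 1.17% were called for long minus no access, 0.816% for short minus no access and 0.233% for long minus short access. The smallest p for each gene was that of Chrm4 Z49748exon_at for long minus no access (-0.17 ± 0.11, adjusted p = 0.532), Chrm1 M16406cds_s_at for long minus short access (-0.24 ± 0.20, adjusted p = 0.754), Slc18a3 U09211_at for long minus short access (-0.09 ± 0.08, adjusted p = 0.777) and Chrm5 for short minus no access (0.10 ± 0.15, adjusted p = 0.907). Chrm4 M16409_at gave -0.09 ± 0.09 for long minus no access (adjusted p = 0.701), a mean over regions of which 3 were at the floor.

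Whether an access effect differed between 1 region and the other 5 was tested in 126 contrasts. limma called 0, and 2 had an unadjusted p under 0.05, while the background was 12.8%, 6.88% and 0.117% in lateral hypothalamus and at most 0.117% elsewhere. The 2 were both of the transporter. For Slc18a3 U09211_at, long minus short access in amygdala differed by 0.51 ± 0.20 from the other regions (adjusted p = 0.551), its arrays reading 8.37, 8.28, 7.71 and 8.05 with long access, 8.11, 7.74, 7.47 and 7.77 with short access, and 7.99, 7.75, 8.05 and 7.90 with no access. For X80395cds_s_at, long minus short access in lateral hypothalamus differed by 0.42 ± 0.19 (adjusted p = 0.488). The 2 probe sets of the gene thus had their smallest p in different regions. Of the receptors, Chrm1 M16406cds_s_at had its smallest p for short minus no access in septum (-1.12 ± 0.56, adjusted p = 0.988), where it lay below the filter.

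The other acetylcholine receptor genes gave the same count. In the contrasts within regions, Chrm3 M16407_at was called in 0 of 18 with 3 unadjusted p-values under 0.05, and its smallest adjusted p was 0.077, and the nicotinic subunits in 0 of 93, 6 with unadjusted p-values under 0.05 (smallest adjusted p 0.115).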

How the data were processed

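Total RNA of 6 brain regions was labelled as biotinylated cRNA and hybridised to Affymetrix rat neurobiology arrays, per the labels' protocols. The deposited values are intensities, MAS5 signals per the submitters' processing notes; the version and scaling are not given in the sources used here. Their 2% trimmed mean was 250.8 to 251.3 on each array. Control probe sets (59) were left out, and the other 1263 were scaled to a trimmed mean of 500, floored at 32 and turned into log2 values. Probe sets with a mean of at least 100 in the region (any region for fits over all 63 arrays) were fitted with limma 3.58.1 in R 4.3.3 (moderated test with an intensity trend), on the groups named in the labels, and p-values were adjusted per contrast. Gene symbols are those of the platform annotation: 1137 probe sets had 1 symbol, 8 several and 118 none. Member probe sets were all described, with each called test or, in a family without a call, the contrast of smallest p; up to 4 genes of a list were named per contrast by smallest p. The members and lists were chosen with earlier results of these data known. The steps were tested on simulated data. Same-numbered arrays were checked for shared deviations. In no region did every pair correlate above 0.1 (lowest -0.18, in amygdala), so the numbers were not used to pair arrays in the main tests. The median was still higher for same-numbered than for other pairs in each region. Outside medial prefrontal cortex it was 0.03 to 0.15, against -0.08 to -0.01. In septum and lateral hypothalamus every same-numbered pair was positive (lowest 0.06 and 0.03). In medial prefrontal cortex, where the arrays numbered 3 stand apart, the same-number correlation had a median of 0.58 (-0.0014 to 0.79), against -0.47 for other pairs. No 2 arrays were identical. The alternatives tried were unscaled values, quantile normalization, other floors and filters, array weights, no cross-hybridising probe sets, a replicate block, subsets of groups and each array left out in turn.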

Additional observations from a re-analysis of the deposited data

Results flagged for a closer look

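In groups of 4 arrays, an array was picked out where its gap to the nearest other array passed Dixon's 95% criterion; this happened in 4 of the 60 groups tested, and chance does so in about 1 of 20. Chrm1 M16406cds_s_at read 6.27 on the no access array numbered 3 of amygdala, against at least 7.85 on the other 3. Chrm5 read 5.13 on the no access array numbered 4 of amygdala, against at least 7.08. In lateral hypothalamus with long access, Chrm1 AJ006522mRNA_at read 6.52 on the array numbered 3, against at most 5.39, and Chrm1 M16406cds_s_at read 5.52 on the array numbered 2, against at most 5.04, both below the filter. For the last of these, 2 of the 4 arrays were at the floor, which narrowed the range: without a floor the gap was 0.652 of the range, in place of 0.919, and no longer passed the criterion.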

How the results depend on the processing

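The members' 0 calls between access groups within regions held in every setting run except that with no filter, which gave 2, both of Slc18a3 U09211_at in septum. The 25 calls of a region against the other 5 became 13 without cross-hybridising probe sets, which drops 2 of the 7 members, and the 53 calls between pairs became 34; with the values as deposited the pairs gave 35. Under the other settings the counts lay between 13 and 26 and between 34 and 54. Leaving out each array in turn gave 0 to 0 calls for access within regions, 22 to 27 for regions, 48 to 55 for pairs, 0 to 0 for the mean access effect and 0 to 0 for its difference between regions. The replicate block gave 0, 25, 53, 0 and 0 calls in the same order. In medial prefrontal cortex same-numbered arrays shared deviations (median correlation 0.58), though not in every pair. For Chrm1 M16406cds_s_at in that region the block narrowed the interval of long minus no access to -0.87 to 0.31. Without the prefrontal arrays numbered 3, a setting chosen after seeing the data, Chrm1 M16406cds_s_at in medial prefrontal cortex minus amygdala turned to 0.0569. Chrm4 M16409_at in amygdala turned to 1.239 with no floor. For 57 single differences (those called against other regions or between neighbours, the access contrasts of smallest p, and 2 others named with a changed call), 635 values under other settings kept direction and call, 26 lost the call, 3 gained it and 2 turned; leaving out an array lost the call 49 times, 25 of them for X80395cds_s_at in amygdala or lateral hypothalamus, and the causes were not tested. The number of arrays, 3 or 4 per group, limits the precision, and probe sets at the floor have bounds only.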
